A study of Mus musculus with 8 samples.

Results

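Tnf, Il6, Il10, Osm and Lif are 5 cytokine genes, taken from the 32287 gene identifiers of the matrix by their symbols. They were described across the blood and heart leukocytes of mice that had received bone marrow from a donor with stroke or from a control donor. Every recipient, in both groups, carried Mx1Cre and the floxed c-Myb allele (Mx1Cre:c-Mybfl/fl), an interferon-inducible Cre that lets c-Myb, a gene blood-forming cells need, be deleted in the host before transplantation. The design therefore has 2 groups, marrow of stroke donors and marrow of control donors, with 2 recipients each, and no group without transplantation. The ages of the mice and the time after transplantation are not given in the sources used here, and host macrophages that survive depletion cannot be told apart from donor cells by these 5 genes. Live cells were sorted for CD45 and CD11b, blood and heart cells of a mouse received different hashtag antibodies, and both were pooled before a single 10x Genomics 3′ library was made for that mouse. The hashtag gave the organ of a cell, and the barcode suffix gave its mouse. That suffixes follow the numbering of the samples is an assumption that no file states, and each comparison of donor groups rests on it.

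Tumour necrosis factor (Tnf) is an early inflammatory cytokine made as a membrane protein by monocytes, macrophages and other leukocytes. It signals through 2 receptors, Tnfrsf1a and Tnfrsf1b, to NF-kB. Interleukin-6 (Il6), oncostatin M (Osm) and leukaemia inhibitory factor (Lif) belong to the family whose receptors share the signalling chain gp130 (Il6st) and act through JAK kinases and STAT3. Il6 binds Il6ra, Osm binds Osmr or Lifr, and Lif binds Lifr. Interleukin-10 (Il10) restrains inflammatory gene expression through Il10ra, Il10rb and STAT3. In the heart these cytokines are known from infarction, myocarditis and overload, where oncostatin M acts on cardiomyocytes and fibroblasts.

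On genome build GRCm38 (mm10), Tnf (ENSMUSG00000024401) lies on chromosome 17 at 35199381 to 35202007 on the minus strand. Il6 (ENSMUSG00000025746) lies on chromosome 5 at 30013114 to 30019981, and Il10 (ENSMUSG00000016529) on chromosome 1 at 131019845 to 131024974, both on the plus strand. Osm (ENSMUSG00000058755) and Lif (ENSMUSG00000034394) are neighbours on the plus strand of chromosome 11, at 4236420 to 4241026 and at 4257557 to 4272514, with 16530 bases between them. For Tnf and Il6, which the data below show higher in heart than in blood, the 250 bases before the annotated starts are shown. They run 5′ to 3′ in the direction of the gene (RefSeq, GRCm38.p6). Osm and Il10 were higher in heart as well, but the source used held no window for them. Capitals mark motif matches, searched on both strands: an NF-kB-like motif (found as GGGATTTTCC, with any base allowed at its A and the T after it), TGANTCA for AP-1, TTGCNNAA for C/EBP and TATAAA for a TATA box.
Il6, chr5:30012864-30013113, plus strand: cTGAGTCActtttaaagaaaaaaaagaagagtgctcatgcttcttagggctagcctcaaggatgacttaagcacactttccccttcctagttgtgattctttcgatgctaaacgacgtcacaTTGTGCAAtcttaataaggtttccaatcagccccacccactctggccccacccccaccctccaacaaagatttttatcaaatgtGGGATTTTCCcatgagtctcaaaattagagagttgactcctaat
Tnf, chr17:35202008-35202257, minus strand: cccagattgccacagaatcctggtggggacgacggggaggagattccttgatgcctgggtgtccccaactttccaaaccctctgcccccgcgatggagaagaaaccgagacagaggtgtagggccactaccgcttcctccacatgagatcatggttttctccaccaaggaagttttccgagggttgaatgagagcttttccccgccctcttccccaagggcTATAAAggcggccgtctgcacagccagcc
The Il6 window held the AP-1 match 249 bases, the C/EBP match 128 bases and the NF-kB-like match 44 bases before the start. The Tnf window held a TATA box 29 bases before the start and none of the other 3. The Lif window, not shown, held an AP-1 match 228 bases before its start and none of the other 3. Of 32851 mouse promoter windows of the same length, 1.41% held the NF-kB-like letters, 6.75% the AP-1 letters, 9.56% the C/EBP letters and 12.37% the TATA box. A match is a description of letters and not of binding.

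All 5 transcripts also carry AU-rich elements in their 3′ untranslated regions, the signal through which proteins such as tristetraprolin (Zfp36) and regnase-1 (Zc3h12a) are known to limit cytokine messages. The 30 bases shown for each are the stretch of the GENCODE vM21 3′ untranslated region with the most copies of the heptamer TATTTAT, in capitals.
Tnf: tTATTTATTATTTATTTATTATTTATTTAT
Osm: atccgttttaTATTTATaaggccTATTTAT
Il6: actttaagttaatttatgattgaTATTTAT
Il10: ctcgtttgtacctctctccgaaaTATTTAT
Lif: gctgtcTATTTATtactatgtccTATTTAT
Over the whole region, Tnf held 8 heptamers in 764 bases, Lif 5 in 3180, Il10 4 in 706, Osm 3 in 1017 and Il6 1 in 1668, with overlapping copies counted. As many heptamers or more stood in 0.08% of mouse 3′ untranslated regions of similar length for Tnf, in 0.62% for Il10, 1.56% for Lif, 2.04% for Osm and 36.62% for Il6. Tnf was thus the richest of the 5 for its length, and Il6 the poorest.

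The 4 libraries held 2020 to 3303 barcodes and 10067873 to 16513840 gene UMIs (unique molecular identifiers, each counting 1 captured transcript), with medians of 4005 to 4689 UMIs per barcode. After filtering, 4935 heart cells and 4746 blood cells remained, 675 to 1524 per mouse in heart and 972 to 1363 in blood. Clusters were named "-like" from marker genes, and macrophage-like cells were the largest class in heart, at 28.4% to 45.3% of cells per mouse. The sort was for CD11b, a myeloid marker, yet B cell-like, NK cell-like, endothelial-like and haemoglobin-led clusters were also present. In blood, stroke replicate 2 stood apart, since 59.85% of its cells were B cell-like against 2.67% to 3.78% in the other 3 mice. The largest unnamed cluster had 371 blood and 173 heart cells and scored highest on B cell markers (mean z 2.48). It was led by Fcer2a, Vpreb3 and Ighd, and stayed unnamed because its leading genes held a marker of another class. B cell-like values leave it out. Unnamed cells were 16.69% of blood cells in stroke replicate 2 and 3.15% to 7.2% in the other mice. Of Ddx3y, a Y-linked gene, control replicate 1 had 507 UMIs and the other 3 mice 1 to 3, while Xist stood at 1 UMI there and 5517 to 10902 in the others, so sex was not balanced between donor groups. Barcode sequences that occurred in more than 1 library numbered 14.

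Each of the 5 genes was found mainly in heart. Of 4838 Tnf UMIs, 93.8% came from heart cells, and the share was 93.9% of 1473 for Osm, 97.0% of 304 for Il6, 95.9% of 171 for Il10 and 94.7% of 19 for Lif. Depth therefore differs widely between the genes: Tnf was seen in 1561 heart cells and Lif in 11. Levels below are CPM, the UMIs of a gene scaled to the usual fixed total of gene UMIs in the summed cells of 1 mouse. In such sums, fewer cells of a type and less RNA per cell cannot be told apart.

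Tnf stood at 153 and 174 CPM in the hearts of control replicates 1 and 2 and at 228 and 187 CPM in those of stroke replicates 1 and 2. In the blood of the same mice, in the same order, it stood at 17.2, 14.2, 22.1 and 5.78 CPM. Every heart value lay above every blood value. The log2 fold change, heart over blood, was 3.76 with a standard error (SE) of 0.34 (edgeR quasi-likelihood test with the mouse as block, adjusted p = 0.00309, Benjamini-Hochberg over 12044 genes).

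Osm, a member of the gp130 family, stood at 46.3 and 37.7 CPM in control hearts and at 68.2 and 76.0 CPM in stroke hearts. Blood values were 5.42, 3.73, 5.21 and 2.96 CPM, all below the lowest heart value. The log2 fold change was 3.71 (SE 0.29, edgeR adjusted p = 0.00211).

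Il6 stood at 15.4, 11.4, 7.31 and 17.6 CPM in heart and rested on 1, 4, 1 and 3 UMIs in blood, with the mice in the order used for Tnf. The log2 fold change was 4.86 (SE 0.44, edgeR adjusted p = 0.0029). From summed UMIs the heart level was 29.4 times that of blood, with an exact 95% interval of 15.3 to 65.0 that covers counting error only. Il10 stood at 5.29, 5.19, 7.03 and 9.63 CPM in heart, and blood held 0, 3, 2 and 2 UMIs. Its log2 fold change was 4.31 (SE 0.58, edgeR adjusted p = 0.00924), and this call was lost without stroke replicate 1 (adjusted p = 0.0747, the highest of 12 alternatives, whose lowest was 9.2e-07). For Il10 the ratio of summed levels was 21.03, with an interval of 9.98 to 53.1.

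Lif did not pass the low-count filter. It had 6, 2, 8 and 2 UMIs in the hearts and a single UMI in the blood of stroke replicate 1, a ratio of 16.2 with a counting interval of 2.55 to 673. Over all genes tested, 10.2% were called higher in heart and 5.5% lower. With so few blood UMIs, Il6 and Il10 entered the test through their heart values, so the number of members called is not read as a result. The plot of organ levels shows the 4 mice joined across organs.

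**Figure D1:**
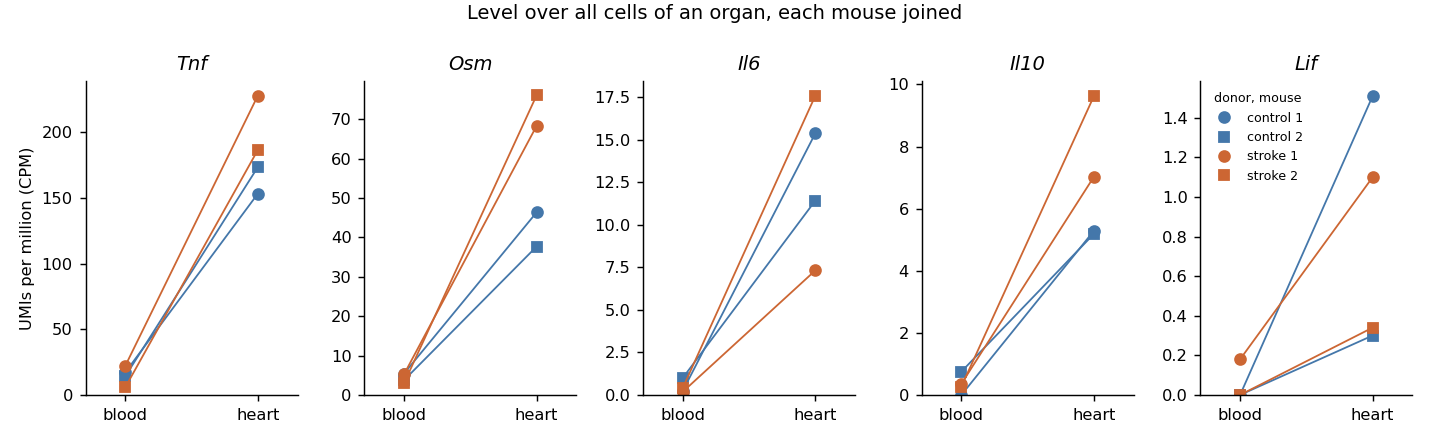
Level of each gene over all cells of an organ, in CPM on linear axes that start at 0; each line joins the blood and heart of 1 mouse, coloured by donor. For every gene all 4 heart points lie above all 4 blood points, and the Lif points rest on at most 8 UMIs each.

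The cell make-up of the organs differs, since macrophage-like cells were found almost only in heart, so the genes were followed within classes. Tnf was led in heart by monocyte-like and macrophage-like cells. Nonclassical monocyte-like cells, the patrolling type, held 354 ± 42.7 CPM (mean ± SD over 4 mice). Classical monocyte-like cells, the Ly6c2-positive type that enters inflamed tissue, held 330.0 ± 72.5. The ranges of these 2 classes over the mice, 324 to 416 and 234 to 392 CPM, overlap, so their order is not resolved. Macrophage-like cells followed with 226 ± 36.7, a haemoglobin-led cluster that also carried macrophage markers with 174 ± 64.3, neutrophil-like cells with 159 ± 35.4 and dendritic cell-like cells with 126 ± 55.4 CPM. The neutrophil-like and dendritic cell-like ranges, 107 to 187 and 62.1 to 196 CPM, overlap as well. B cell-like cells held 10.4 ± 9.0 CPM and NK cell-like cells 4.11 ± 4.83, below every value of the classical and nonclassical monocyte-, macrophage-, neutrophil- and dendritic cell-like classes. By UMIs, 52.3% of heart Tnf came from macrophage-like cells, which were 40.61% of heart cells, 18.8% from nonclassical and 13% from classical monocyte-like cells.

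Tnf also varied inside the macrophage-like class. In the cluster led by Lyve1, Folr2 and Timd4, genes of long-lived resident macrophages, Tnf stood at 203, 113, 138 and 107 CPM in the 4 mice, controls first. In the cluster led by Col14a1, Mmp12 and Ccl12 it stood at 361, 258, 308 and 329 CPM. The second cluster lay above the first in 4 of 4 mice, with no overlap of the ranges. A small cluster led by Cxcl13, Cd207 and Vsig4 held 347, 216, 422 and 324 CPM and overlapped the Mmp12 cluster. These clusters were formed from the cells' expression, with the 5 genes left out of the genes used to cluster, so the difference is given as a description.

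Shares of cells with Tnf gave the same picture at equal depth. With every cell thinned to 1000 UMIs, Tnf was found in 21.3% of 310 heart classical monocyte-like cells (Clopper-Pearson 95% interval 16.9% to 26.3%), 20.9% of 680 nonclassical, 16% of 1969 macrophage-like and 10.9% of 607 neutrophil-like cells. It was found in 0 of 168 NK cell-like cells, which allows a share of cells with a UMI of up to 1.79% by the 3-count floor and 2.17% by the exact interval. Without thinning, the shares were 42.6%, 38.6%, 43.7% and 26.6%, at median depths of 5409, 3219, 4872 and 2483 UMIs, and 1.17% in NK cell-like cells at 2773. Cells thinned out for having too few UMIs numbered 16, 27, 35, 14 and 3 in these classes.

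Osm had another distribution. Heart neutrophil-like cells held 254, 291, 344 and 423 CPM in the 4 mice, controls first, above every classical monocyte-like value (73.2 to 95.5). They made up 12.58% of heart cells and supplied 68.1% of heart Osm UMIs. Classical monocyte-like cells averaged 83.4 ± 10.4 CPM. NK cell-like (31.7 ± 22.2), nonclassical monocyte-like (22.4 ± 3.53), dendritic cell-like (20.2 ± 16.5) and macrophage-like (11.5 ± 2.85) averages came next, with overlapping ranges from one to the next. Endothelial-like cells had 0 Osm UMIs, and 0 of 129 cells at the thinned depth allow a share of cells with a UMI of up to 2.33% by the 3-count floor and 2.82% by the exact interval. After thinning, 32.95% of 607 heart neutrophil-like cells had an Osm UMI (interval 29.2% to 36.9%) against 2.13% of 1034 in blood (1.34% to 3.2%). The unthinned shares were 54.4% and 4.19%, at median depths of 2483 and 1877 UMIs.

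Heart neutrophil-like cells formed 2 clusters that differed in purity. The first, with 426 heart cells, had summed macrophage markers (11 genes, 1 of them at 0) of 188 to 371 CPM, near the 109 to 199 CPM of blood neutrophil-like cells. Osm there stood at 521, 506, 724 and 748 CPM in the 4 mice, controls first. The second, with 187 cells, carried 8194 to 11455 CPM of the same macrophage markers and 2.02 times the median depth of all cells, and held 87.4, 157, 154 and 199 CPM of Osm. Its Tnf level of 195 ± 32.9 CPM was above the 97.9 ± 40.0 CPM of the first cluster. The part of macrophage RNA or of cell pairs in the second cluster was not tested. Where a neutrophil-like result leaves this cluster out, the text says so. The shares of cells and of UMIs, the detection of 2 members and the interaction values include it.

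Il6 was concentrated in few cells. In heart, 20 mast cell or basophil-like cells, 0.41% of heart cells, held 84 of the 295 Il6 UMIs, or 28.5%. Their Il6 stood at 1740.4, 1392, 670.4 and 1021 CPM over 5, 7, 6 and 2 cells in the 4 mice, controls first. These rest on 38, 25, 10 and 11 UMIs, 19 of them in 1 barcode of control replicate 1. The cells had Mcpt8, a basophil protease, in 11 of 20, the high-affinity IgE receptor genes Ms4a2 and Fcer1a in 14 and 11, and Gata2 and Cpa3 in 16 each. Cma1, a protease of tissue mast cells, was at 0. The 21 blood cells of the same cluster had 6 Il6 UMIs, and the heart level was 11.7 times the blood level (counting interval 5.14 to 32.7). The same heart cells held Osm at 1014 ± 436 CPM, on 72 UMIs, against 0 Osm UMIs in blood, which makes heart at least 20-fold higher with 3 UMIs over the blood cells as the floor. With so few cells per mouse, this class was not tested.

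Classical monocyte-like cells were the other main source, with 106 Il6 UMIs, 35.9% of the heart total. They held 4.42, 58.8, 47.8 and 95.9 CPM in the 4 mice, controls first. The value of control replicate 1 rests on 1 UMI in 39 cells, while the other 3 mice had 20 to 55 UMIs in 77 to 109 cells. Il6 was among the 10 leading genes of their heart cluster although it was left out of the clustering genes. Dendritic cell-like cells held 17.5 ± 13.7 CPM, nonclassical monocyte-like cells 9.73 ± 4.5 and macrophage-like cells 4.51 ± 2.77, and these ranges overlap. Of 44 macrophage-like UMIs, 15 lay in a cluster of 67 cells with 2.45 times the median depth. Heart NK cell-like, endothelial-like and fibroblast-like cells had 0 Il6 UMIs in 171, 142 and 21 cells.

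Il10 UMIs were few in every class. Macrophage-like cells supplied 57.3% of its 164 heart UMIs, from 35 of 2004 cells, and held 8.51 ± 3.75 CPM. Nonclassical monocyte-like cells held 13.9 ± 8.46 CPM, on 30 UMIs in 12 cells, and B cell-like cells 8.62 ± 8.2, on 16 UMIs in 9 cells. The ranges of these 3 classes overlap. Thinned to 1000 UMIs, 1.18% of 680 nonclassical monocyte-like cells (exact interval 0.51% to 2.3%) and 0.66% of 1969 macrophage-like cells (0.35% to 1.13%) had an Il10 UMI. No UMI was found in 354 B cell-like or 168 NK cell-like cells, which by the 3-count floor allow up to 0.85% and 1.79%. Without thinning the 4 shares were 1.7%, 1.75%, 2.52% and 0.0%, at median depths of 3219, 4872, 6257 and 2773 UMIs. Thinned to 2000 UMIs they were 0.98%, 1.12%, 1.45% (5 of 346 cells, 0.47% to 3.34%) and 0.0%, so the B cell-like 0 depends on depth. Of the 16 B cell-like UMIs, 13 lay in 86 heart cells of a cluster whose leading genes include Ctla4 and Il5ra. Il10 stood there at 23.4 ± 22.3 CPM, against 1.5 ± 1.85 in the 271 heart cells of the other B cell-like cluster. At 1000 UMIs the shares in monocyte- and macrophage-like cells lie under the limit for NK cell-like cells, a limit set by the number of those cells. Unthinned, 171 heart and 487 blood NK cell-like cells had 0 Il10 UMIs. All 4746 blood cells, which shared the droplet runs, had 7, each in a different cell. The part of free RNA in these shares was not tested. Single cells weighed heavily, with up to 9 UMIs in 1 barcode. In the Cxcl13-led macrophage-like cluster, 2 mice had 0 UMIs and the other 2 had 52.4 and 88.8 CPM. The 18 heart Lif UMIs came from 11 cells in 7 classes and an unnamed cluster, with 6 in nonclassical monocyte-like cells, too few to order the classes.

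**Figure D2:**
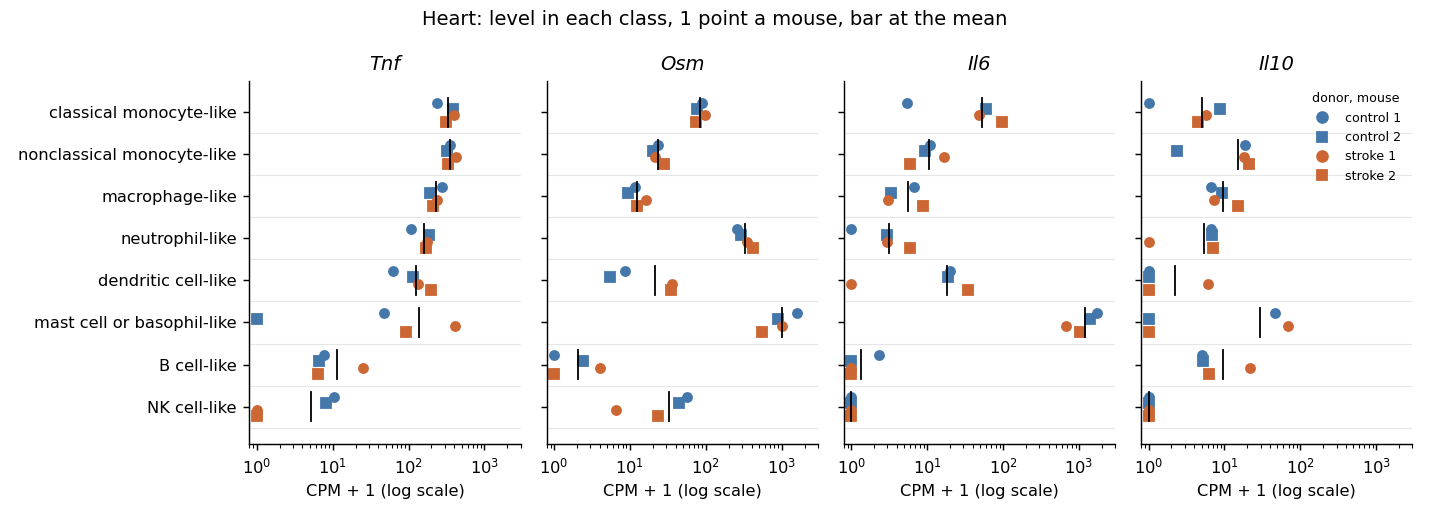
Heart levels by class, in CPM + 1 on a log axis; each point is 1 mouse, coloured by donor, and the black bar is the mean of 4 mice. Tnf is spread over monocyte-, macrophage- and neutrophil-like cells, Osm and Il6 peak in mast cell or basophil-like cells, which are 2 to 7 cells per mouse, and Osm comes next in neutrophil-like cells.

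**Figure D3:**
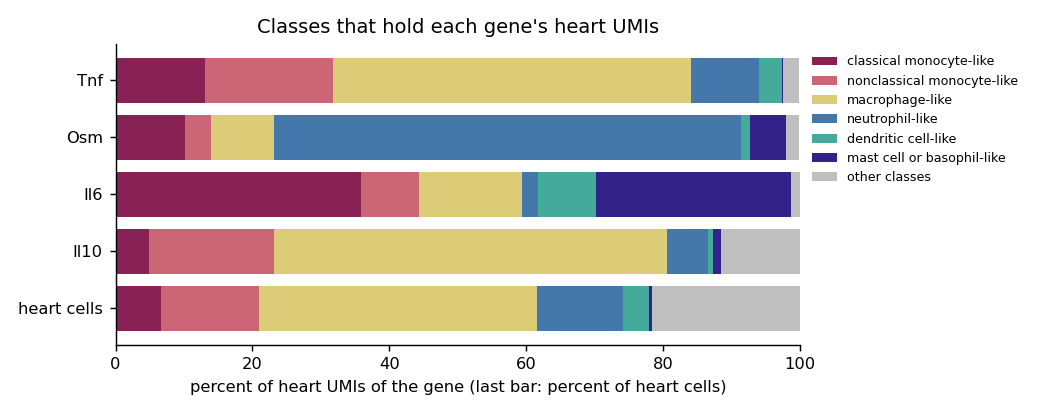
Percent of a gene's heart UMIs held by each class, over 4 mice, with the percent of heart cells in the last bar. Macrophage-like cells hold 52.3% of Tnf and 57.3% of Il10, neutrophil-like cells 68.1% of Osm, and mast cell or basophil-like cells 28.5% of Il6 with 0.41% of cells.

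Detection of 2 members in the same cell was counted at a fixed depth. In heart neutrophil-like cells thinned to 1000 UMIs, Osm was detected in 33.3% of the 66 cells with Tnf and in 32.9% of the 541 cells without. These cells pool the 2 clusters described above, which differ in Osm and Tnf level, and detection was not counted within each. In classical monocyte-like cells Il6 was detected in 7.6% of cells with Tnf and in 7.4% of cells without. In nonclassical monocyte-like cells Osm was detected in 4.2% of the 142 cells with Tnf and 1.7% of the 538 without, which are 6 and 9 cells. At this depth a UMI is often missed, so these shares are counts of detection and not of coexpression.

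The organs were then compared within classes. In classical monocyte-like cells Tnf stood at 234, 380.4, 392 and 314 CPM in heart and at 15.9, 17.3, 20.7 and 17.0 CPM in blood. The log2 fold change was 4.37 (SE 0.15, edgeR adjusted p = 1.0e-28). Osm stood at 88.4, 76.5, 95.5 and 73.2 CPM in heart, and blood held 1, 0, 6 and 0 UMIs. Its log2 fold change was 6.34 (SE 0.4, edgeR adjusted p = 4.0e-18), and the ratio of summed levels was 74.7 (counting interval 35.3 to 189). Of all 6077 genes tested, 12.6% were called higher and 5.48% lower. Osm entered this test through its heart values alone. Most of these cells lay in different clusters, a heart one led by Astl, Thbs1 and Il6 and a blood one led by Chil3, Fn1 and Vcan. In the blood one, Tnf stood at 67.9 ± 106 CPM in 31 heart cells (range 0.0 to 222), on 9 UMIs. Its 1053 blood cells held 18.3 ± 2.14 CPM.

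Il6 in classical monocyte-like cells did not pass the low-count filter. It had 1, 30, 20 and 55 UMIs in heart and 0, 2, 0 and 0 in blood, a ratio of 196 with a counting interval of 53.1 to 1643. Without the filter, edgeR gave a log2 fold change of 6.73 (SE 0.52, adjusted p = 3.5e-36), with 4.95% of 16064 genes called higher. Il6 is known here almost only from its heart values. Dropping the filter also moved stroke against control over all heart cells from 3 to 640 calls. Such unfiltered p-values are therefore not read as support. Il10 had 8 UMIs in heart and 3 in blood (ratio 9.88, interval 2.37 to 57.8).

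In nonclassical monocyte-like cells Tnf stood at 346, 324, 416 and 329.6 CPM in heart and at 64.8, 27.3, 68.4 and 83.2 CPM in blood. Of the blood classes with at least 20 cells in each mouse, this one held the most Tnf. The log2 fold change was 2.72 (SE 0.14, edgeR adjusted p = 4.3e-43), beside 10.3% of 5411 genes called higher and 6.52% called lower. The other members failed the filter. Osm had 51 UMIs in heart and 2 in blood (ratio 18.5, interval 4.85 to 156). Il10 had 30 and 1 (ratio 21.7, interval 3.61 to 885). Il6 had 25 and 0, at least 6.03-fold higher in heart with 3 UMIs over the blood cells as the floor. The 3 genes passed when no filter was used, where 4.85% of 14665 genes were called higher, and these passes are not read as support either. A heart cluster and a blood cluster, both led by Cd300e, held most of these cells. Tnf in the heart cluster stood at 371 ± 40.5 CPM in 646 heart cells. In the blood cluster it stood at 61.2 ± 23.7 CPM in 483 blood cells. The 61 heart cells of the blood cluster held 72.9 ± 84.9 CPM, on 11 UMIs, with control and stroke means of 0.0 and 146. Within that cluster a heart excess was not resolved.

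In neutrophil-like cells Osm stood at 254, 291, 344 and 423 CPM in heart and at 20.7, 23.2, 20.6 and 55.6 CPM in blood, the last on 5 UMIs in 46 cells. The log2 fold change was 3.61 (SE 0.2, edgeR adjusted p = 2.6e-18), and 4.92 (SE 0.18, adjusted p = 2.8e-12) without the cluster rich in macrophage markers. Tnf stood at 107, 187, 174 and 167 CPM in heart and at 10.9, 9.29, 19.2 and 0 CPM in blood. Its log2 fold change was 3.45 (SE 0.27, adjusted p = 4.2e-14), and 3.11 (SE 0.35, adjusted p = 3.2e-06) without that cluster. Blood held 27 Tnf UMIs in all, so Tnf entered this test through its heart values alone. The background was high with all neutrophil-like cells, at 34.5% of 5810 genes called higher and 27.3% lower, and 14.2% and 8.13% of 3470 genes without the mixed cluster.

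In dendritic cell-like cells Tnf stood at 62.1, 115, 131 and 196 CPM in heart and at 11.7, 6.18, 8.16 and 5.03 CPM in blood (log2 fold change 3.83, SE 0.38, edgeR adjusted p = 3.5e-05, with 5.4% of 5392 genes called higher). These cells formed a single cluster over both organs. With 12 Tnf UMIs in the blood cells, Tnf entered the test through its heart values alone. Il6 had 25 UMIs in heart and 0 in blood there, at least 8.86-fold higher on the same floor. In B cell-like and NK cell-like cells no member passed the filter, and without it Il10 in B cell-like cells did pass the test (4.51, SE 1.44, edgeR adjusted p = 0.048, on 16 heart UMIs and 1 in blood), where 2.55% of 16345 genes were called higher. This unfiltered call carries the same limit. Tnf in B cell-like cells had 20 UMIs in 357 heart cells and 12 in 890 blood cells (ratio 3.98, counting interval 1.85 to 8.94). Of these blood cells, 778 came from stroke replicate 2. By mouse, heart was higher in 3 of 4. Control means were 6.18 CPM in heart and 7.22 in blood, and stroke means 14.6 and 0.92, so a heart excess was not resolved. Osm in NK cell-like cells had 15 and 14 UMIs (ratio 3.38, interval 1.52 to 7.57).

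**Figure D4:**
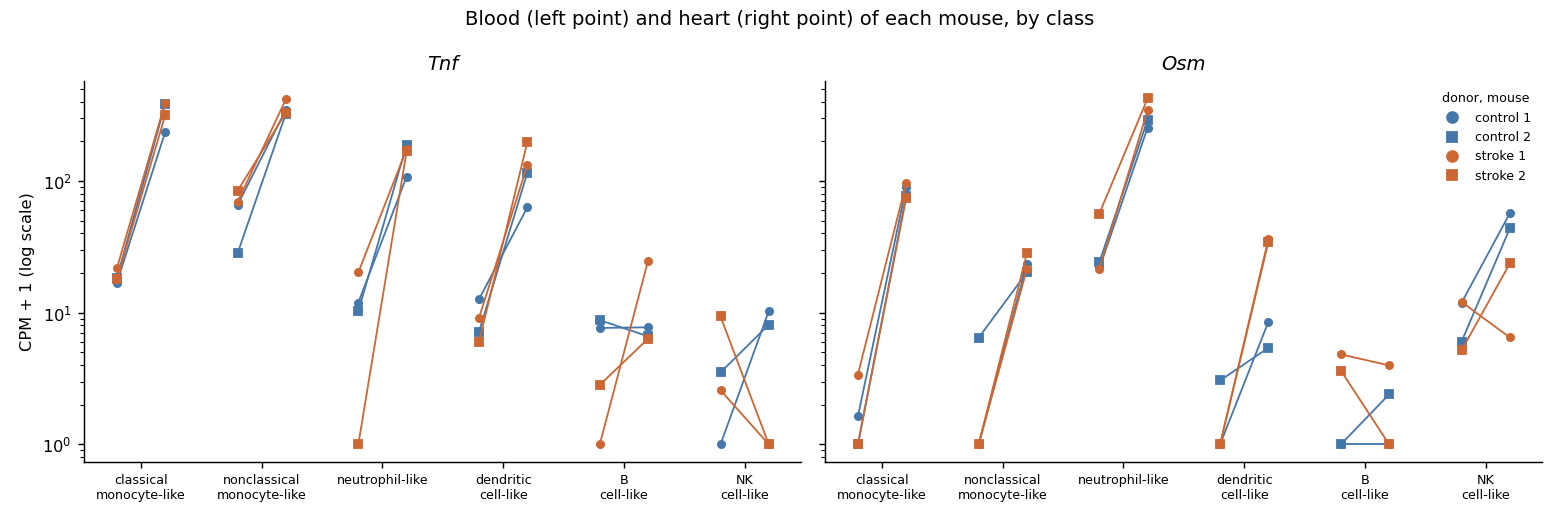
Tnf and Osm in the blood (left point) and heart (right point) of each mouse by class, in CPM + 1 on a log axis. In the 4 myeloid classes every Tnf line climbs from blood to heart, Osm climbs most steeply in classical monocyte-like cells, and the Tnf lines of B and NK cell-like cells go in both directions.

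Beside these organ differences, immediate-early and stress genes moved as well. Their 14 genes, such as Fos, Egr1 and Dusp1, sum to 12671 to 13215 CPM in heart classical monocyte-like cells and 2105 to 2314 CPM in blood ones. In nonclassical cells the sums are 9533 to 10774 and 1788 to 2204 CPM, in neutrophil-like cells without the mixed cluster 18307 to 21913 and 3239 to 4129, and in dendritic cell-like cells 9525 to 11257 and 1650.3 to 2745. In B cell-like cells they are 3398 to 4568 in heart and 1182 to 1594 in blood. All 12 tested genes of the list were called higher in heart in both monocyte-like classes, with Egr1 at a log2 fold change of 6.83 (SE 0.16) in classical and 6.48 (SE 0.18) in nonclassical cells. Heart and blood cells were prepared from different tissues and then shared a tube and a droplet run. The part of tissue handling in the Tnf, Il6, Osm and Il10 differences was not tested.

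Genes of the TNF and NF-kB pathway rose in heart beside Tnf. This list, the stress list above and those below were chosen with earlier results of these data known, so their counts are a description. In classical monocyte-like cells 12 of 14 tested were called higher and 0 lower (all genes 12.6% and 5.48%), with a median log2 fold change of 1.02 against -0.01 over all genes. The largest were Tnfaip3, the deubiquitinase A20 that restrains NF-kB (4.96, SE 0.16), Nfkbiz, an atypical inhibitor protein that also drives Il6 (4.19, SE 0.1), Nfkbia, the inhibitor IkB-alpha (2.74, SE 0.08), Nfkbie (2.4, SE 0.19) and the adhesion molecule Icam1 (1.82, SE 0.17). In nonclassical cells 10 of 13 were higher (median 0.95), in dendritic cell-like cells 8 of 13 (median 1.39), and in neutrophil-like cells without the mixed cluster 6 of 9 (median 0.81), with 0 called lower in each. Of all genes tested, 10.3%, 5.4% and 14.2% were called higher in these classes. Several of these genes are inhibitors of the pathway, and the list's change says nothing of its activity.

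Genes that control cytokine messages or shedding changed in the same classes. Zfp36, which encodes tristetraprolin, the binder of AU-rich elements such as those shown above, was higher in heart by 3.2 (SE 0.1, log2) in classical and 3.68 (SE 0.12) in nonclassical monocyte-like cells. Zc3h12a, which encodes the nuclease regnase-1, was higher by 1.99 (SE 0.2) and 2.23 (SE 0.24), and Zfp36l1 by 2.08 (SE 0.2) and 1.77 (SE 0.12). Of this list 7 of 10 tested genes were called higher in classical and 6 of 9 in nonclassical cells, with medians of 1.14 and 0.78, and 0 lower. Of all genes, 12.6% and 10.3% were called higher there. Neutrophil-like cells without the mixed cluster had 5 of 9 higher and 1 lower (all genes 14.2% and 8.13%). The lower one was Rc3h1 (-0.92, SE 0.27), which encodes roquin-1.

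The JAK and STAT3 list had 6 of 9 genes higher in both monocyte-like classes, beside 12.6% of all genes in classical and 10.3% in nonclassical cells. Socs3, the feedback inhibitor of gp130 signalling, was higher by 3.2 (SE 0.14) in classical and 1.38 (SE 0.16) in nonclassical cells, and the kinase Pim1 by 2.42 (SE 0.09) and 2.61 (SE 0.11). Stat3 itself differed by 0.97 (SE 0.1) and 0.6 (SE 0.09). Among regulators of Il10, the transcription factor genes Nfil3 (1.96, SE 0.14, and 2.32, SE 0.18), Bhlhe40 (3.02, SE 0.33, and 1.45, SE 0.18) and Batf (1.09, SE 0.23, and 0.89, SE 0.28) were called higher in both classes. Of all genes, 12.6% and 10.3% were called higher there. The list also holds Maf, Prdm1 and Irf4, whose values are not given here, so this is not a result for the list. Of related ligands, 1 of 3 tested was higher in classical cells (all genes 12.6%), the TNF family gene Tnfsf9 (3.9, SE 0.39). In nonclassical cells 1 of 4, Ltb, was lower (-0.48, SE 0.15), beside 6.52% of all genes.

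Receptors of the 5 cytokines were called in both directions. With 3 to 7 tested per comparison, 1 call moves a share far. The counts are therefore given beside the shares of all genes and not read further. Over all cells 1 of 7 tested was called higher in heart, Il10rb (0.67, SE 0.15, edgeR adjusted p = 0.0391), and 0 lower, beside 10.2% and 5.5% of all genes. In classical monocyte-like cells 2 of 7 were higher and 1 lower (all genes 12.6% and 5.48%), in nonclassical cells 0 and 2 of 7 (10.3% and 6.52%), and in neutrophil-like cells 4 and 2 of 7 (34.5% and 27.3%). In B cell-like cells 1 of 6 was higher and 2 lower (6.88% and 5.37% of 5424 genes), and in NK cell-like cells 1 of 3 was higher (5.12% of 3672 genes). Il6ra was lower in heart within classical (-0.38, SE 0.1), nonclassical (-0.43, SE 0.1), neutrophil-like (-0.85, SE 0.15) and B cell-like cells (-0.9, SE 0.23). Tnfrsf1b, the TNF receptor of leukocytes, was lower in nonclassical monocyte-like cells (-0.48, SE 0.09), where blood held 471 ± 78.0 and heart 312 ± 44.03 CPM. It was higher in neutrophil-like (0.59, SE 0.16), dendritic cell-like (1.15, SE 0.29), B cell-like (1.8, SE 0.33) and NK cell-like cells (1.6, SE 0.33). Tnfrsf1a was higher in classical monocyte-like cells (0.42, SE 0.13). In neutrophil-like cells it was lower with the mixed cluster (-0.51, SE 0.15) and higher without it (0.51, SE 0.14). Il10ra was higher in classical monocyte-like (0.64, SE 0.11) and neutrophil-like cells (1.33, SE 0.19).

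Receptors of the gp130 ligands lay partly outside the myeloid classes. Osmr had 0 UMIs in blood and 46 in heart, 26 of them in 142 endothelial-like and 15 in 21 fibroblast-like cells, with 2 in 2004 macrophage-like and 0 in neutrophil-like and classical monocyte-like cells. Lifr was found in macrophage-like cells at 266 ± 19.9 CPM, against 40.9 ± 10.3 in heart classical monocyte-like cells. Il6st stood at 49.6 ± 1.41 CPM in macrophage-like and 71.5 ± 6.97 in heart classical monocyte-like cells. Lifr and Il6st were called higher in heart neutrophil-like cells (4.02, SE 0.34, and 4.64, SE 0.57), but neither was called without the mixed cluster. Lifr was lower in heart B cell-like cells (-0.84, SE 0.2).

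The genes whose levels ran most like each cytokine were ranked by Pearson's r of log2(CPM + 10) over 19 profiles of class and organ, which share the 4 libraries. For Tnf they were Ccnl1 (0.89), Nfkbiz (0.89), Noct (0.88), Gm26885 (0.87) and Skil (0.87). For Osm they were Rabgef1 (0.9), Fosl1 (0.89), Plk3 (0.89), Ptgs2 (0.87) and Acod1 (0.86). For Il10 they were Slc10a1 (0.85), Slc7a5 (0.83), Pcf11 (0.82), Ddx5 (0.8) and Zc3h12a (0.8). For Il6 they were E2f8 (0.93), Dhx40 (0.9), Cd200r3 (0.88), Pgghg (0.88) and Tmem191c (0.86). Cd200r3 is also a leading gene of the mast cell or basophil-like cluster. Between the cytokines, r was 0.48 for Tnf with Osm, 0.3 for Tnf with Il6 and 0.63 for Osm with Il6.

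The comparison the study was built on is stroke against control marrow. Over all heart cells Osm was at 68.2 and 76.0 CPM in the stroke mice and at 46.3 and 37.7 CPM in the controls, without overlap. Its log2 fold change of 0.8 (SE 0.15) had an unadjusted edgeR p of 0.00181 and an adjusted p of 0.582 over 12537 genes. Without the low-count filter, Osm was called (0.82, adjusted p = 1.4e-05), among 640 genes in all, 3.09% of 20739. DESeq2 did not call it. Neutrophil-like cells, which hold most Osm, were 14.6% and 15.3% of heart cells in the stroke mice and 11.6% and 8.56% in the controls.

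Tnf in heart was 0.35 higher on the log2 scale with stroke marrow (SE 0.14, unadjusted p = 0.0447, edgeR adjusted p = 0.62), with 228 and 187 CPM against 153 and 174. Il10 stood at 7.03 and 9.63 against 5.29 and 5.19 CPM (0.67, SE 0.29, adjusted p = 0.627). The groups did not overlap for either gene. With 2 mice against 2, an exact test cannot give a p under 0.333. A lack of overlap, here or in the other donor comparisons, is therefore not read as a result. The share of all genes without overlap was not counted. Il6 was mixed, at 7.31 and 17.6 CPM against 15.4 and 11.4 (-0.09, SE 0.43, adjusted p = 0.969), and was 0.65 (log2) without the mast cell or basophil-like cells. None of the 4 genes tested was called by edgeR or DESeq2, 2 had an unadjusted edgeR p under 0.05, and 0.0239% of all genes were called. In simulated counts of this comparison, 55.8% of genes changed by a log2 fold of 1 and 96.9% of those changed by 2 were recovered. The simulation gave every gene the same fixed spread, not estimated from these mice, and a set number of changed genes. Its rates are therefore not the power of the real test. Even there, changes of 1 were often missed.

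The same comparison was made within heart classes. In macrophage-like cells Tnf was at 233 and 209 CPM in stroke recipients against 274 and 188 in control recipients (-0.03, SE 0.17, edgeR adjusted p = 1). Osm there was at 15.3 and 11.4 against 10.7 and 8.5 CPM (0.55, SE 0.31, adjusted p = 1), on 13 to 59 UMIs per mouse. It was 0.31 without stroke replicate 1, 0.36 without control replicate 2 and 0.0 with the organ called by hashtag ratio. Il6 (0.42, SE 0.68) and Il10 (0.42, SE 0.44) were not called either, beside 0.0191% of 10488 genes.

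In neutrophil-like cells Osm was at 344 and 423 CPM in stroke recipients against 254 and 291 in control recipients, without overlap (0.53, SE 0.23, unadjusted p = 0.0404, edgeR adjusted p = 0.654). Without the mixed cluster the log2 fold change was 0.61 (SE 0.24, adjusted p = 0.998). It was 0.0 with hashtag doublets alone removed and -0.03 with clustering at resolution 2, so it depends on which cells are counted as neutrophil-like, and it was 0.33 without stroke replicate 2. Tnf there differed by 0.21 (SE 0.26, adjusted p = 0.946), and 0.152% of 6598 genes were called.

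In classical monocyte-like cells Osm (0.02, SE 0.27) and Tnf (0.11, SE 0.22) overlapped between groups. Il6, at 47.8 and 95.9 against 4.42 and 58.8 CPM, overlapped as well (0.84, SE 0.46, edgeR adjusted p = 0.962), and the value was 3.93 without control replicate 2, when control replicate 1 with its 1 UMI stands alone. There 0.0353% of 5672 genes were called. In nonclassical monocyte-like cells Tnf differed by 0.17 (SE 0.18) and Osm by 0.16 (SE 0.43), both with an edgeR adjusted p of 0.999. Of the 6042 genes none was called (0.0%) by edgeR or DESeq2, and 262 had an unadjusted edgeR p under 0.05.

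**Figure D5:**
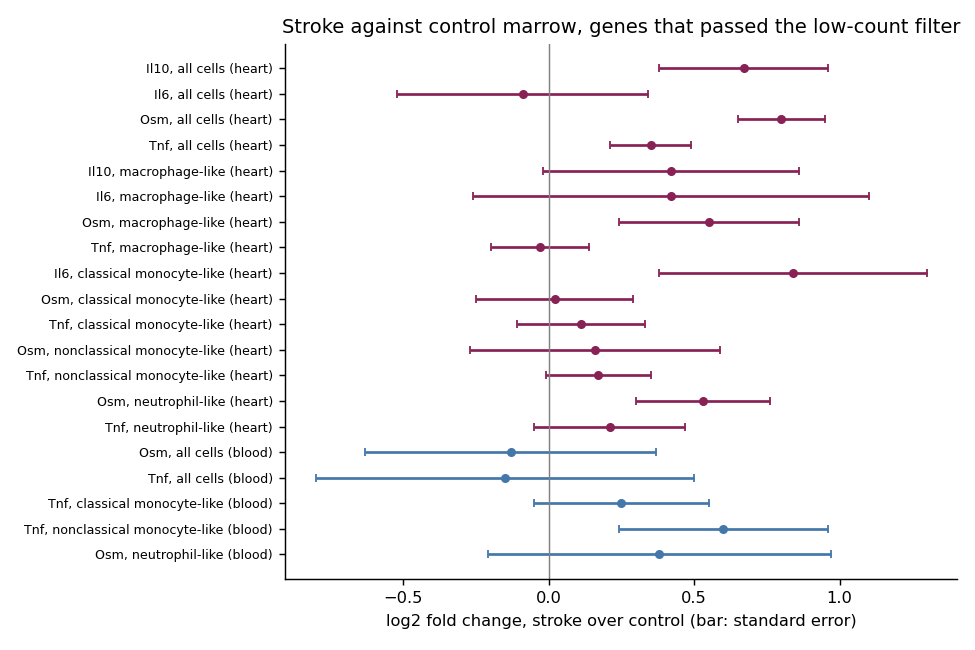
Log2 fold change of stroke over control marrow, with its standard error, for each gene that passed the low-count filter in a comparison; heart in purple and blood in blue. Over all heart cells Osm (0.8), Il10 (0.67) and Tnf (0.35), and in heart neutrophil-like cells Osm (0.53, but -0.03 at clustering resolution 2), lie farther from 0 than 2 standard errors, and no point passed the adjusted threshold. With 2 mice per group, 2 standard errors are not a limit of significance, and Il10 had an unadjusted edgeR p of 0.059.

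In blood the members were too sparse for most tests. Over all blood cells Tnf stood at 22.1 and 5.78 CPM in stroke recipients against 17.2 and 14.2 in control recipients (-0.15, SE 0.65, edgeR adjusted p = 0.98). Osm stood at 5.21 and 2.96 against 5.42 and 3.73 CPM (-0.13, SE 0.5, adjusted p = 0.978). The low values of stroke replicate 2 go with its B cell-like blood, and leaving out stroke replicate 1 made Tnf a call (-1.39) among 3565 genes, 29.7% of 11996. Of 11515 genes none was called (0.0%) by edgeR, 65 had an unadjusted p under 0.05 and DESeq2 called 4.

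By class, blood Tnf differed by 0.25 (SE 0.3) in classical monocyte-like cells, with 0.0112% of 8959 genes called, and by 1.39 at clustering resolution 2. In nonclassical monocyte-like cells it differed by 0.6 (SE 0.36), at 68.4 and 83.2 against 64.8 and 27.3 CPM, without overlap. Leaving out control replicate 2 gave 0.14, and leaving out control replicate 1 gave 1.41. There 0.0% of 5649 genes were called by edgeR or DESeq2, and 216 had an unadjusted edgeR p under 0.05. Osm in blood neutrophil-like cells differed by 0.38 (SE 0.59), with 0.0209% of 4792 genes called. All 3 had edgeR adjusted p-values of at least 0.999.

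Whether the organ difference depended on the donor was tested as an interaction. Over all cells the interaction was 0.95 for Osm (SE 0.42, unadjusted p = 0.0724), 0.73 for Tnf (SE 0.58), 0.85 for Il6 (SE 1.0) and 0.81 for Il10 (SE 1.44), on the log2 scale with positive values for a larger heart excess with stroke marrow. None was called by edgeR or DESeq2, and none had an unadjusted p under 0.05. Of 13063 genes 0.0% were called by edgeR and 1 by DESeq2, and 519 had an unadjusted edgeR p under 0.05. In the dendritic cell-like and both monocyte-like classes, taken as classical, nonclassical and dendritic, 0.0% of 6746, 6125 and 6363 genes were called by either tool (278, 278 and 296 at an unadjusted edgeR p under 0.05). In neutrophil-like cells 0.0871% of 6890 genes were called. No member was among them. In classical cells Osm was at -2.24 (SE 1.19, unadjusted p = 0.0682), opposite in sign to its value over all cells, Il6 at 3.09 (SE 1.88, unadjusted p = 0.109) and Tnf at -0.01 (SE 0.27). In dendritic cell-like cells Osm was at 4.49 (SE 3.57) and Tnf at 1.17 (SE 0.91), and in neutrophil-like cells Osm was at 0.14 (SE 0.55) and Tnf at -0.34 (SE 0.66). Tnf in nonclassical cells was at -0.37 (SE 0.33). The Osm and Il6 values rest on few or no blood UMIs in classical and dendritic cell-like cells.

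The gene lists gave 0 calls in each stroke against control comparison. Over all heart cells 0 of 8 receptors, 0 of 15 TNF and NF-kB genes, 0 of 9 JAK and STAT3 genes, 0 of 10 genes of message control or shedding and 0 of 6 regulators of Il10 were called, with medians between -0.1 and 0.15 against -0.01 over all genes. The 14 immediate-early and stress genes had a median of 0.28, with 12 of 14 values above 0 and 0 called.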

How the data were processed

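Gene expression and hashtag libraries of 4 mice (2 per group) were analysed. The values the authors deposited are UMI counts per gene and barcode, not normalized, made with Cell Ranger 7.1.0 on mm10, per the submitters' processing notes. Organ was called per library with HTODemux of Seurat 5.3.0 (k-means, quantile 0.99), which removed 954 doublets and 101 negatives. Cells had at least 200 genes, at most 10% mitochondrial UMIs and a Scrublet score of at most 0.25 (scanpy 1.11.5). Clusters (leidenalg 0.10.2, resolution 1, 2000 variable genes, 30 components, 20 neighbours) were named from marker lists at a mean z-score of at least 1. The limits for names were set after the data were seen, and cluster names may differ from the authors'.

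UMI counts of each class were added up within a mouse and organ (at least 20 cells in each mouse) and tested with edgeR 4.0.16 (quasi-likelihood, TMM, filterByExpr, Benjamini-Hochberg 0.05), with the mouse as block between organs and no block between donor groups. DESeq2 1.42.0 was an alternative. The test was checked on simulated counts with the same fixed spread for every gene. Intervals are exact at 95% and, like the 3-count floors, cover counting error only. Shares used cells thinned to 1000 UMIs.

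The members and lists were chosen with earlier results of these data known. Listed genes were named where they passed the test, at most the 5 largest per list and comparison, or where they are receptors. The genes most alike each member needed at least 100 UMIs. Replicate numbers were not stated to pair mice.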

Additional observations from a re-analysis of the deposited data

How the results depend on the processing

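Of the member values between organs, 121 kept their direction and call over the alternatives and 1 lost the call, Il10 over all cells without stroke replicate 1. Of the stroke against control values, 230 kept both, 30 reversed and 2 became calls. Without the low-count filter, members called between organs were 4 for nonclassical monocyte-like cells and 3 for dendritic ones, and stroke against control called 640 genes, 1 of them a member, over all heart cells and 4 over all blood cells. DESeq2 called 40 and 4 genes there. Il6 over all heart cells was 0.65 without mast cell or basophil-like cells. With automatic doublet thresholds macrophage-like Tnf was 0.0 and classical Tnf -0.09 in heart. With hashtag doublets alone removed, heart classical Tnf was -0.15, classical Osm 0.0 and neutrophil-like Osm 0.0. At clustering resolution 2 these were -0.01, -0.15 and -0.03. Classical Osm was -0.07 with stricter cell filters, and blood Osm over all cells 0.02 with organ by hashtag ratio. The cause of these moves was not tested.

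Same-numbered mice correlated at -0.32 in heart and -0.26 in blood, and the labels do not pair them. With the replicate block over all heart cells 4 genes were called against 3, no member among them, and classical Osm was -0.02. The crossed pairing as block called 6 genes.

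Leaving out each mouse in turn, genes called between organs over all cells ran from 398 (without stroke replicate 1) to 4830 (without stroke replicate 2), and nonclassical members called from 1 to 2. In heart, stroke against control called 4 to 337 genes over all cells, the latter without control replicate 2. Log2 fold changes in heart ran from -0.87 to 0.43 for Il6 over all cells. In macrophage-like cells they ran from -0.29 to 0.24 for Tnf, -0.77 to 1.16 for Il6, -0.22 to 0.95 for Il10 and 0.31 to 0.72 for Osm. They ran from -0.12 to 0.53 for classical Tnf, -0.19 to 0.22 for classical Osm, -0.03 to 0.33 for nonclassical Tnf, -0.14 to 0.77 for neutrophil-like Tnf, 0.33 to 0.73 for neutrophil-like Osm and 0.26 to 3.93 for classical Il6. In blood, 0 to 3565 genes and 0 to 1 members were called over all cells, the highest without stroke replicate 1. Blood Tnf ran from -1.39 to 0.5 and Osm from -0.59 to 0.19, classical Tnf from 0.0 to 0.31, nonclassical Tnf from 0.14 to 1.41 and neutrophil-like Osm from -0.01 to 1.48. For the interaction over all cells 0 to 2 members were called, the latter without stroke replicate 1, where 3426 of 13458 genes were called. A lone mouse of a group was assumed to vary like the others.

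Depth limits Lif (18 heart UMIs), and in blood Il6 and Il10 (9 and 7 UMIs).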
